A study of Homo sapiens with 12 samples.

Results

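The proteasome is the large protease that breaks down proteins tagged with ubiquitin, and its subunits are encoded by the PSM genes. Its members were taken here as the protein-coding genes whose symbol is PSMA, PSMB, PSMC, PSMD, PSME, PSMF or PSMG followed by a number. This gave 47 genes of the 57773 in the count tables, from 48 such symbols in the table of gene names; PSMB3 is not analysed here. They comprise 30 constitutive subunits, 5 inducible ones (PSMB8, PSMB9, PSMB10, PSME1 and PSME2) and 12 others, namely assembly chaperones, further activators, an inhibitor and the tissue-restricted PSMA8 and PSMB11.

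RNA was measured by bulk, stranded, paired-end sequencing of poly(A) RNA in WI-38 cells, a line of diploid fibroblasts from human fetal lung. The siCtrl_Prolif group was transfected with control siRNA and kept proliferating in vehicle (DMSO) for 8 days. The siCtrl_Sen, siNTRK2_Sen and siBDNF_Sen groups were kept for 8 days in 50 µM etoposide, a topoisomerase poison that damages DNA and drives these cells into senescence, with control siRNA or siRNA against NTRK2 (which encodes the receptor TrkB) or BDNF (its ligand). Each siRNA was a single pool at 25 nM, so that an effect of the target and one of the pool cannot be told apart, and each group had 3 libraries of the 12. The study asked how the loss of either gene alters senescent cells, and the comparisons below follow that design. The study's reporting form says in general terms that its experiments were repeated independently, but the labels do not say whether these replicates were separate cultures, so the p-values measure the spread between these libraries, which may be technical.

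The core particle of the proteasome, 20S, is a barrel of alpha and beta rings in which PSMB5, PSMB6 and PSMB7 carry the proteolytic sites. Interferon and other inflammatory signals induce PSMB8, PSMB9 and PSMB10, which take the places of PSMB5, PSMB6 and PSMB7 in newly made particles and give the immunoproteasome, whose products suit loading onto MHC class I. The regulatory particle, 19S, is built from the PSMC ATPases and the PSMD subunits and recognises, unfolds and feeds in ubiquitinated proteins, whereas PSME1 and PSME2 form an alternative, interferon-inducible cap known as PA28. In fibroblasts PSMB8, PSMB9 and PSMB10 are expressed at a low level at rest. PSME1 and PSME2 were not low in the proliferating cells here, where per kilobase both stood above the median of the constitutive subunits. PSMB8, PSMB9 and the peptide transporter gene TAP1 are neighbours in the MHC class II region, and TAP1 and PSMB9 are transcribed away from each other from the stretch that separates them.

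The promoters of the 5 inducible genes and of TAP1 are shown because interferon is known to act through them and because PSMB9 and TAP1, which share this region, moved in opposite directions below. Each line is the 250 bases before the annotated start, 5′ to 3′ on the gene's strand, taken from RefSeq on GRCh38.p14, at chr6:32853942-32854191 (plus strand) for PSMB9, chr6:32853705-32853954 (minus) for the upstream start of TAP1, chr6:32844680-32844929 (minus) for the upstream start of PSMB8, chr16:67936851-67937100 (minus) for PSMB10, chr14:24135944-24136193 (plus) for PSME1 and chr14:24146611-24146860 (minus) for PSME2. Capitals mark matches to 5 motifs searched on both strands: the antioxidant response element (TGACNNNGC), the interferon-stimulated response element or ISRE (GAAANNGAA), the gamma-activated site (TTCNNNGAA), the kappa B site (GGANNNTCC) and the CCAAT box (CCAAT).
PSMB9: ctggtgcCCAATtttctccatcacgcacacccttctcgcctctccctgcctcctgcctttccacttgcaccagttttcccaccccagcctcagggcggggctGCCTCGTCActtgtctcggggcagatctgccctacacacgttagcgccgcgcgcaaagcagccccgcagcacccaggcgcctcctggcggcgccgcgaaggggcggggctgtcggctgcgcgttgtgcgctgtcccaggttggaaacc
TAP1: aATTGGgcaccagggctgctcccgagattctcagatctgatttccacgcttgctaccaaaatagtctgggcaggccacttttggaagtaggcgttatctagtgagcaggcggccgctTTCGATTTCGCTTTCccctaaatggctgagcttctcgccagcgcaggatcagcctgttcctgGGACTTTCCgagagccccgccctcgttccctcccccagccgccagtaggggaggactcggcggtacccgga
PSMB8: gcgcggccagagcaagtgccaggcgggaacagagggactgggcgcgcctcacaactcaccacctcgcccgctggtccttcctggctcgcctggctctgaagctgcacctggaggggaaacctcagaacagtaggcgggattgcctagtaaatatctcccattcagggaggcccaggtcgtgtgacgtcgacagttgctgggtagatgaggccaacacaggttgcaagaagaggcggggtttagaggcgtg
PSMB10: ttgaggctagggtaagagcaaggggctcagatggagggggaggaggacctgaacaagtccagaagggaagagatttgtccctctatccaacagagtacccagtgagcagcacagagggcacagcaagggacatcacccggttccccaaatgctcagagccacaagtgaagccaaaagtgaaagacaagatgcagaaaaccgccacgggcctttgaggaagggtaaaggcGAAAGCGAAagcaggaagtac
PSME1: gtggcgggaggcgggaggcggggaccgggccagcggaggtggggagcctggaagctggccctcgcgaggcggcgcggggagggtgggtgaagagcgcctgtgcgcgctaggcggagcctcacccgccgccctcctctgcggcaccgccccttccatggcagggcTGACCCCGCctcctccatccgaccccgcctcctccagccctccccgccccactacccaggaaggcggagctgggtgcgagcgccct
PSME2: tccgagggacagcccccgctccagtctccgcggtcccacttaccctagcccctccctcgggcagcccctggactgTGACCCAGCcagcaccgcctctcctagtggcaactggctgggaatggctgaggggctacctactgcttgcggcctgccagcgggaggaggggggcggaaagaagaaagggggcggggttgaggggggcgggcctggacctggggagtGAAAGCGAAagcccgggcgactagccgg
The windows of PSMB9 and TAP1 overlap at their distal ends, and the CCAAT box marked in both is the same one, in that overlap. This TAP1 window, that of the upstream start, also held 2 overlapping ISRE matches and a kappa B match. The PSMB9 window also held an antioxidant response element. PSMB10 and PSME2 each held an ISRE within 30 bases of the start, at -21 to -13 and at -28 to -20. No motif letters were found in the upstream PSMB8 window, and a gamma-activated site lay at -65 to -57 before its second annotated start, as one did at -189 to -181 before the second annotated start of TAP1. In all, 41 members matched 50 promoters. Of these, 10.0% held the ISRE, against 6.88% of all 35116 promoters, 24% held the antioxidant response element (10.9% of all), 14% the gamma-activated site (6.57%), 8.0% the kappa B site (7.8%) and 36.0% the CCAAT box (32.0%). These are matches of letters and not sites shown to be bound.

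The libraries held between 31567912 and 72328151 counts, and members took 0.5266% to 0.5719% of them. By group this share was 0.5266% to 0.5377% in siCtrl_Prolif, 0.5442% to 0.5719% in siCtrl_Sen, 0.5427% to 0.5669% in siNTRK2_Sen and 0.5414% to 0.5463% in siBDNF_Sen. Of the 47 members, 45 passed the filter on low counts and were tested among 21518 genes; PSMA8, a subunit of the testis, and PSMB11, a subunit of the thymus, had at most 10 counts in any library (0 to 0.155 CPM, that is, TMM-normalized counts scaled to a common library size). BDNF fell with its siRNA, from 157 to 169 CPM in siCtrl_Sen to 44.3 to 48.9 CPM, and NTRK2 had 0 counts in all siNTRK2_Sen libraries, which allows up to 0.0485 to 0.0605 CPM, against 0.125 to 0.258 CPM in siCtrl_Sen. CDKN1A, the cell-cycle inhibitor p21, was higher in senescent cells (log2 fold change 1.62 ± 0.042, SE) and LMNB1 and the proliferation marker MKI67 lower; MKI67 was 1.72 ± 0.17 (log2, SE) higher with siNTRK2 and 0.91 ± 0.18 higher with siBDNF than in siCtrl_Sen, CDKN1A was lower with siNTRK2 (-0.50 ± 0.041), and the part of this in the values below was not tested. Leukocytes carry inducible subunits at rest. Of 8 leukocyte markers, PTPRC, CD3E and ITGAM were among those at 0 in all proliferating libraries, where the inducible subunits were highest. Summed without CD68, which fibroblasts also express, the list reached 0.538 to 0.704 CPM in siCtrl_Prolif, 1.94 to 2.77 in siCtrl_Sen, 1.47 to 1.68 in siNTRK2_Sen and 2.84 to 3.01 in siBDNF_Sen; with CD68 the sums were 50.1 to 57.2, 109 to 116, 77.3 to 80.9 and 181 to 184 CPM. The 8 fibroblast markers summed to 31800 to 33800 CPM in siCtrl_Prolif, 23000 to 24800 in siCtrl_Sen, 27000 to 30000 in siNTRK2_Sen and 23900 to 24400 in siBDNF_Sen. These sums rest mostly on COL1A1 and COL1A2. Of the 8 markers 6 were called lower and 1 higher in senescent cells, 1 lower and 5 higher with siNTRK2, and 5 lower and 1 higher with siBDNF, where DCN went from a mean of 587 CPM in siCtrl_Sen to 376 CPM and THY1 from 644 to 443 CPM. The part of these marker differences in the results was not tested.

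In senescent cells 4 of the 5 inducible subunits fell, while the constitutive ones moved in both directions at shares near those of all genes. The 4 (80.0%, against 28.3% of all genes) were lower in siCtrl_Sen than in siCtrl_Prolif, and the median log2 fold change of all 5 was -0.536. Of 30 constitutive subunits 7 were higher and 10 lower (23.3% and 33.3%, against 29.8% and 28.3% of all genes). Their median was -0.0545, beside a median of 0.0246 over all genes tested. Across all 45 members tested, 17 were lower (37.8%) and 8 higher (17.8%), against 28.3% and 29.8% of all genes. Fewer cells of a type and less RNA per cell cannot be told apart in such bulk samples.

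PSMB9, which replaces PSMB6, changed most. Its level was 4.09, 4.10 and 4.55 CPM in the proliferating libraries and 1.51, 1.62 and 1.49 CPM in siCtrl_Sen. Every senescent library was thus below every proliferating one, and the log2 fold change was -1.46 ± 0.22 (SE, adjusted p = 3.33e-06), that is, 0.364 times the proliferating level. It was the single member past an absolute log2 fold change of 1, which 16.7% of all genes passed. PSMB9 was also the scarcest of the inducible members, with 168 to 288 counts per proliferating library and 85 to 94 per siCtrl_Sen library. Its gene lies at 6:32811913-32827628 on hg19 and overlaps PSMB8-AS1 on its own strand and PSMB8 and TAP1 on the other, and how the counting divided reads of overlapping genes is not given in the sources used here.

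PSMB8, which replaces PSMB5, stood at 26.2, 27.2 and 29.1 CPM in proliferating libraries and at 19.9, 17.7 and 17.5 CPM in siCtrl_Sen (log2 fold change -0.58 ± 0.069, adjusted p = 8.63e-08), with no overlap of the groups. PSMB10, which replaces PSMB7, fell from 24, 24 and 25.3 CPM to 19.8, 16.6 and 20.4 CPM (-0.36 ± 0.075, adjusted p = 0.000195), again without overlap. The PA28 subunits parted. PSME1 went from 81.6, 89.6 and 89.5 CPM to 57.9, 58.4 and 63.5 CPM (-0.54 ± 0.061, adjusted p = 4.39e-08), whereas its partner PSME2 was at 85.0, 90.2 and 97.4 CPM in proliferating and 89.3, 82.8 and 92.9 CPM in siCtrl_Sen libraries, a difference of -0.04 ± 0.055 (adjusted p = 0.561) within the spread of the libraries. The plot of CPM by library shows these levels beside those of the constitutive catalytic subunits.

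**Figure D1:**
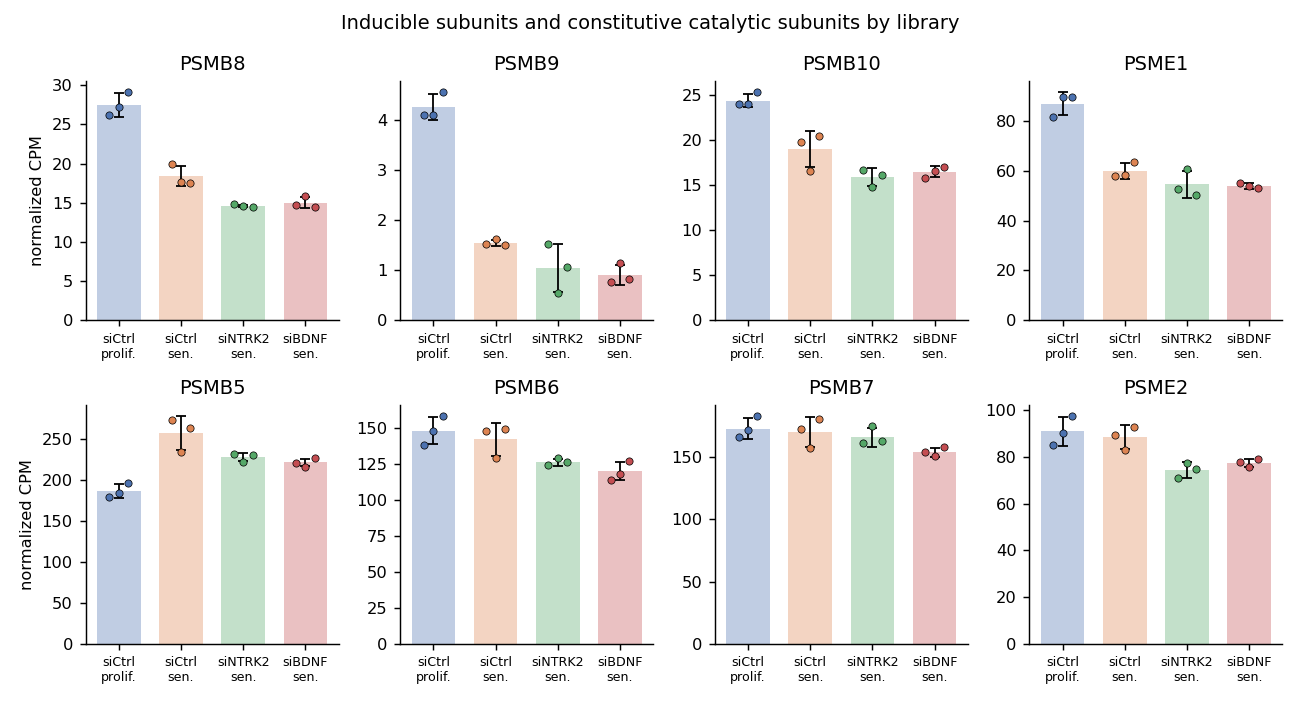
Normalized CPM (vertical axes, from 0, a separate scale for each gene) of the inducible subunits PSMB8, PSMB9, PSMB10, PSME1 and PSME2 and the constitutive catalytic subunits PSMB5, PSMB6 and PSMB7 in the 4 groups. Points are libraries, bars the mean of 3 libraries and error bars the SD; PSMB8, PSMB9, PSMB10 and PSME1 were lower in all senescent groups than in proliferating cells, while PSMB5 was higher.

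The constitutive counterparts did not follow. PSMB5, which carries the chymotrypsin-like site, rose from 179, 184 and 196 CPM to 273, 234 and 263 CPM (log2 fold change 0.46 ± 0.051, adjusted p = 2.72e-08). PSMB6 (-0.06 ± 0.057, adjusted p = 0.371) and PSMB7 (-0.02 ± 0.052, adjusted p = 0.728) did not pass the test, and their groups overlapped. Within a library the ratio of an inducible subunit to its counterpart does not depend on the scaling. Per kilobase of transcript, PSMB8 stood at 13.6%, 13.7% and 13.8% of PSMB5 in proliferating libraries and at 6.76%, 7.03% and 6.19% in siCtrl_Sen, a log2 difference of -1.04 ± 0.054 (SE). PSMB9 stood at 2.4%, 2.25% and 2.34% of PSMB6 and then at 0.83%, 1.02% and 0.811% (-1.40 ± 0.11), and PSMB10 at 14.6%, 14.1% and 13.9% of PSMB7 and then at 11.5%, 10.7% and 11.4% (-0.34 ± 0.04). None of these 3 ratios overlapped between the groups, and each gave a two-sided exact permutation p of 0.10, the smallest that 3 against 3 libraries allow (0.10 also when adjusted over the 3 ratios). Taken over the 6 catalytic genes, the inducible ones made up 9.12% ± 0.12 (SD, n = 3) of the counts per kilobase in siCtrl_Prolif and 5.93% ± 0.12 in siCtrl_Sen.

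**Figure D2:**
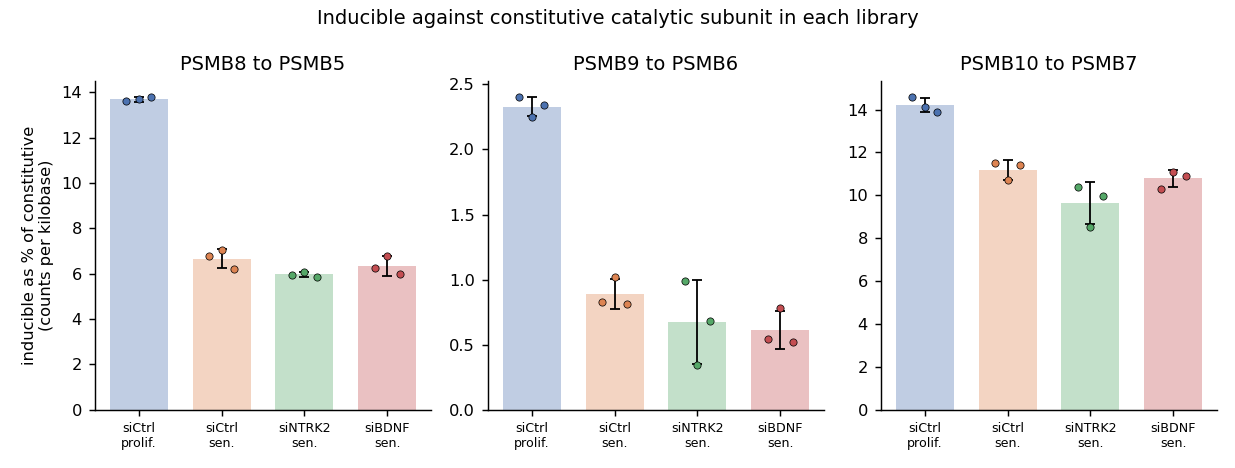
Counts per kilobase of PSMB8, PSMB9 and PSMB10 as a percent of those of PSMB5, PSMB6 and PSMB7 (vertical axes, from 0, a separate scale for each pair) in the 4 groups. Points are libraries, bars the mean of 3 and error bars the SD; all 3 ratios were lower in every siCtrl_Sen library than in every siCtrl_Prolif library.

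Among the structural subunits of the 20S core, all 7 alpha subunits lay below 0 on the log2 scale in senescent against proliferating cells, and 4 of them fell: PSMA1, PSMA3, PSMA4 and PSMA7 (log2 fold changes of -0.18, -0.44, -0.38 and -0.31). PSMA3 went from 90.5, 96.5 and 88.5 CPM to 65.2, 67.5 and 70.1 CPM. Of the beta subunits without a proteolytic site, PSMB1 fell (-0.19 ± 0.045, adjusted p = 0.00101) and PSMB2 and PSMB4 did not pass the test. In the 19S particle members moved both ways. PSMD2, a scaffold subunit that binds ubiquitin receptors, went from 494, 511 and 528 CPM to 802, 749 and 813 CPM (0.63 ± 0.043, adjusted p = 3.40e-12), a 1.54-fold rise, and per kilobase was the most abundant constitutive subunit in siCtrl_Sen (271 CPM per kilobase, against a median of 85.4). The ATPase PSMC4 rose from 101, 106 and 113 CPM to 146, 131 and 143 CPM (0.39 ± 0.05, adjusted p = 3.49e-07), and the ubiquitin receptor PSMD4 from 128, 134 and 140 CPM to 162, 154 and 164 CPM (0.25 ± 0.045, adjusted p = 2.71e-05). PSMC5, PSMD3 and PSMD8 rose by less. In the other direction, PSMD11 fell from 120, 129 and 124 CPM to 96.2, 95.0 and 102 CPM (-0.35 ± 0.046, adjusted p = 4.31e-07), and PSMC3, PSMD1, PSMD6 and PSMD7 fell, with log2 fold changes of -0.13 to -0.26.

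Of the assembly chaperones, PSMG1 and PSMG2, which pair to build the alpha ring, both fell. PSMG1 went from 26.3, 27.4 and 26.5 CPM to 18, 18.2 and 19 CPM (-0.54 ± 0.065, adjusted p = 9.75e-08) and PSMG2 changed by -0.35 ± 0.061 (adjusted p = 2.66e-05), whereas PSMG3 and PSMG4, the other such pair, did not pass the test. PSMD9, a chaperone of the 19S base, rose by 0.12 ± 0.05 (adjusted p = 0.0491). PSMF1, an inhibitor of the 20S core, fell by 0.14 on the log2 scale (adjusted p = 0.0143). The nuclear activator PSME3 and the activator PSME4 did not pass the test. The heat map of members by library shows these directions held in the individual libraries for the members with the largest changes.

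**Figure D3:**
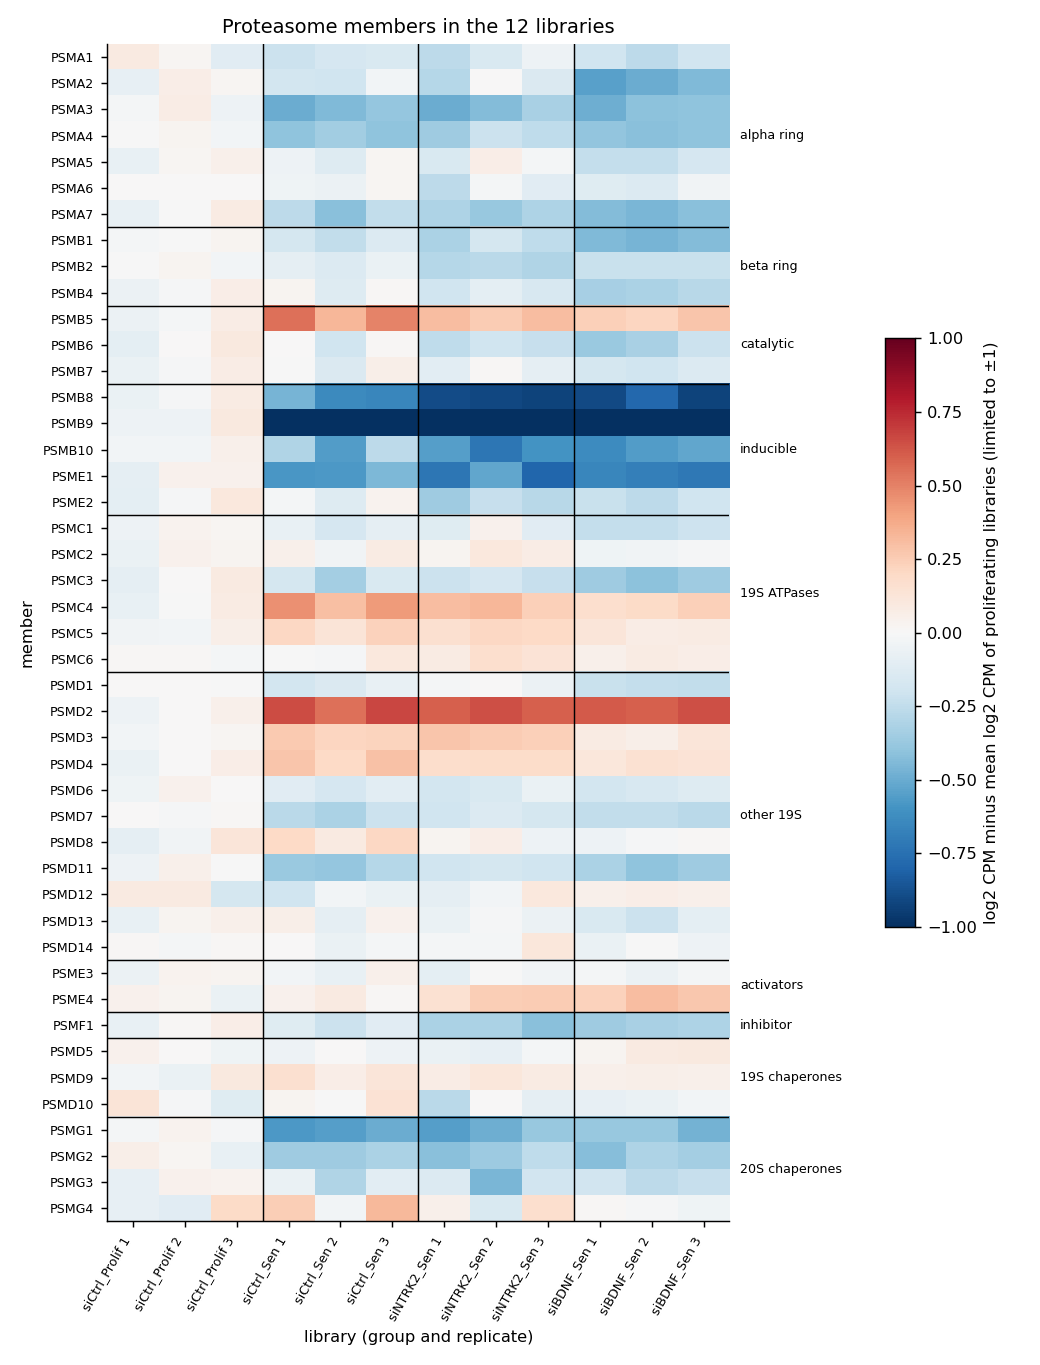
The 45 tested members (rows, grouped by role) in the 12 libraries (columns), coloured by log2 CPM minus the mean log2 CPM of the 3 proliferating libraries, with colours limited to ±1. PSMB8, PSMB9, PSMB10 and PSME1 are blue in every senescent library, and PSMB5, PSMC4 and PSMD2 are red.

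The counts in this comparison kept their size when each library was left out in turn, since 15 of the 17 members called lower and 6 of the 8 called higher were called in all 6 such fits. PSMD9 lost its call in 5 of the 6. With an offset for each library's trend in length and GC of the transcripts, added after the data had been seen, 13 of the 17 lower and all 8 higher members kept their calls, among them the 4 inducible ones. PSMA1 (then -0.04, adjusted p = 0.39), PSMD1, PSMD6 and PSMF1 lost theirs, 16 members in place of 8 were called higher and the median of the constitutive subunits turned to 0.026.

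With siNTRK2, PSMB8, PSMB10 and PSME2 were lower than in siCtrl_Sen, of which PSMB8 and PSMB10 had already fallen in senescent cells, while the median of the constitutive subunits lay near that of all genes. All 5 inducible members lay below their siCtrl_Sen level (median log2 fold change -0.255) and 3 of them passed the test. Of the 30 constitutive subunits 4 fell and 1 rose (median 0.0005, beside -0.00236 over all genes). Over all 45 members tested, 8 were lower (17.8%) and 2 higher (4.44%), against 10.0% and 11.1% of all genes, and none passed an absolute log2 fold change of 1 (0 also by DESeq2 and at an unadjusted p under 0.05), against 0.957% of all genes.

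PSMB8 was at 14.8, 14.6 and 14.5 CPM with siNTRK2, below each of the siCtrl_Sen libraries given above (-0.33 ± 0.071, adjusted p = 0.00152). PSME2 fell from its siCtrl_Sen level to 70.8, 77.3 and 74.8 CPM (-0.25 ± 0.055, adjusted p = 0.00174), without overlap, and PSMB10 to 16.7, 14.8 and 16.1 CPM (-0.25 ± 0.076, adjusted p = 0.0183), where the groups overlapped by the lowest siCtrl_Sen library. PSMB9 was at 1.52, 0.544 and 1.06 CPM, from 94, 27 and 57 counts; its difference of -0.54 ± 0.24 (adjusted p = 0.120) did not pass the test, nor did that of PSME1 (-0.14 ± 0.062, adjusted p = 0.120). PSMB8 stood at 5.95%, 6.09% and 5.87% of PSMB5 per kilobase, below every siCtrl_Sen library (log2 difference -0.16 ± 0.056, two-sided exact permutation p = 0.10, adjusted p = 0.15). PSMB10 stood at 10.4%, 8.51% and 9.96% of PSMB7 (-0.22 ± 0.096, exact permutation p = 0.10, adjusted p = 0.15), again without overlap, and the ratio of PSMB9 to PSMB6 overlapped between the groups (exact permutation p = 0.40).

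Among the constitutive subunits, PSMB5 fell to 231, 222 and 230 CPM (-0.17 ± 0.051, adjusted p = 0.0164) and PSMB6 to 124, 129 and 126 CPM (-0.17 ± 0.057, adjusted p = 0.0391), where the groups overlapped for PSMB6 but not for PSMB5. PSMB7 stayed within the spread of the libraries (-0.03 ± 0.052, adjusted p = 0.697). PSMB2 (-0.19 ± 0.042, adjusted p = 0.00189) and PSMD8 (-0.15 ± 0.051, adjusted p = 0.0416) were the other constitutive subunits that fell. PSMD11, an organising subunit of the 19S lid, rose to 108, 110 and 108 CPM (0.16 ± 0.046, adjusted p = 0.0158). The inhibitor PSMF1 fell from 96.7, 90.6 and 97.4 CPM to 84.4, 84.3 and 78.8 CPM (-0.20 ± 0.049, adjusted p = 0.0042), and PSME4 rose from 112, 116 and 110 CPM to 121, 129 and 130 CPM (0.17 ± 0.046, adjusted p = 0.0105).

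With siBDNF the decrease reached more of the core. All 5 inducible members again lay below siCtrl_Sen (median -0.199) and 3 fell, and of the 30 constitutive subunits 13 fell, with a median of -0.12 beside 0.00398 over all genes. By edgeR 0 constitutive subunits rose (1 at an unadjusted p under 0.05 and 0 by DESeq2). Over all members tested, 17 were lower (37.8%) and 1 higher (2.22%), against 10.2% and 10.3% of all genes, and none passed an absolute log2 fold change of 1 (0 also by DESeq2 and at an unadjusted p under 0.05), against 0.609% of all genes. This comparison used the same siCtrl_Sen libraries as that of siNTRK2, so that the values of both share the error of those libraries.

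PSMB8 was at 14.7, 15.9 and 14.5 CPM with siBDNF (-0.29 ± 0.071, adjusted p = 0.00486) and PSME2 at 77.8, 75.5 and 79.0 CPM (-0.19 ± 0.055, adjusted p = 0.0142), both below every siCtrl_Sen library. PSMB9 was at 0.763, 1.14 and 0.815 CPM (-0.74 ± 0.25, adjusted p = 0.0348), from 25, 77 and 56 counts. PSMB10 (15.8, 16.6 and 17 CPM, -0.20 ± 0.076, adjusted p = 0.0677) and PSME1 (55.2, 54.0 and 53.0 CPM, -0.15 ± 0.062, adjusted p = 0.0922) did not pass the test. All 3 constitutive catalytic subunits fell, PSMB5 to 220, 216 and 226 CPM (-0.22 ± 0.051, adjusted p = 0.00315), PSMB6 to 114, 118 and 127 CPM (-0.24 ± 0.057, adjusted p = 0.00321) and PSMB7 to 154, 151 and 158 CPM (-0.15 ± 0.052, adjusted p = 0.048), of which PSMB7 overlapped with the lowest siCtrl_Sen library. The ratio of PSMB8 to PSMB5 was accordingly 6.23%, 6.80% and 5.98% and overlapped with siCtrl_Sen (log2 difference -0.07 ± 0.077, exact permutation p = 0.50). That of PSMB10 to PSMB7 overlapped as well (exact permutation p = 0.30), while that of PSMB9 to PSMB6, at 0.541%, 0.781% and 0.52%, did not (-0.55 ± 0.21, exact permutation p = 0.10, adjusted p = 0.30). The inducible share of the catalytic counts per kilobase was 5.72% ± 0.26 (SD, n = 3) with siBDNF and 5.31% ± 0.31 with siNTRK2.

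Of the beta subunits without a proteolytic site, the 3 analysed here (PSMB1, PSMB2 and PSMB4, without PSMB3) fell with siBDNF. PSMB4 went from 222, 200 and 220 CPM to 173, 175 and 180 CPM (-0.28 ± 0.048, adjusted p = 0.000146) and PSMB1 from 166, 158 and 171 CPM to 138, 136 and 139 CPM (-0.26 ± 0.045, adjusted p = 0.000186). PSMA2 showed the largest decrease of a constitutive subunit, from 105, 104 and 117 CPM to 82, 84.6 and 88.2 CPM (-0.35 ± 0.062, adjusted p = 0.000195), and PSMA5 fell too. In the 19S particle PSMC3, PSMC4, PSMD3, PSMD8 and PSMD13 fell, with log2 fold changes of -0.14 to -0.19. PSME4 was the single member that rose, to 128, 135 and 131 CPM (0.22 ± 0.046, adjusted p = 0.00116). PSMD2, the subunit that had risen most in senescent cells, stayed at 782, 772 and 797 CPM (-0.01 ± 0.042, adjusted p = 0.929), and at 771, 800 and 774 CPM with siNTRK2.

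**Figure D4:**
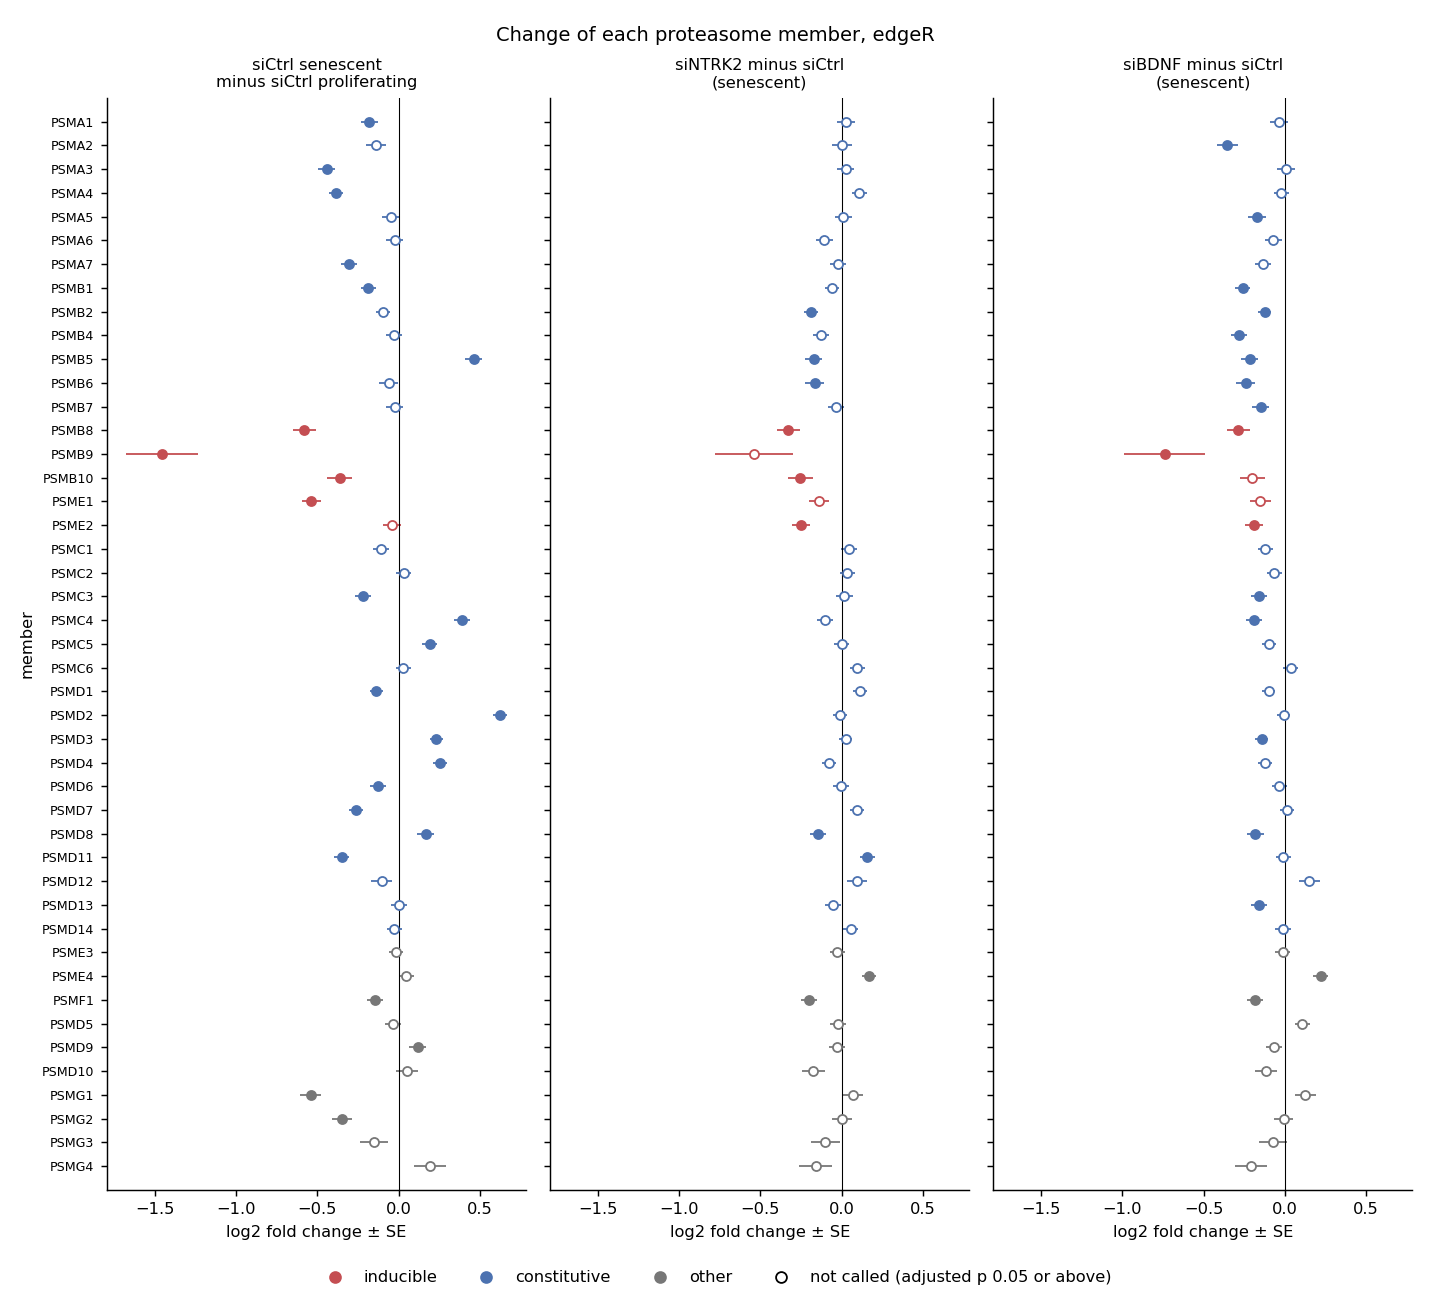
Log2 fold change (horizontal axis, the same in all panels) of each tested member (rows) in siCtrl senescent against siCtrl proliferating cells, and with siNTRK2 or siBDNF against siCtrl in senescent cells. Bars are standard errors of edgeR's fit, filled points were called at an adjusted p under 0.05, and colours separate inducible, constitutive and other members; all 5 inducible members lie below 0 in each panel.

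These decreases with siRNA were small and depended on the settings. Among 45 members the log2 change with siNTRK2 correlated with the GC content of the transcript (Pearson r = -0.509) and with log2 length (0.45), and that with siBDNF likewise (-0.462 and 0.452), which is a description across genes that share libraries. With the trend in length and GC content removed, 4 of the 8 members called lower with siNTRK2 kept their call (PSMB2, PSMB8, PSME2 and PSMF1) and 7 of the 17 with siBDNF (PSMA2, PSMA5, PSMB1, PSMB2, PSMB4, PSMC4 and PSMF1). None of the inducible members kept its call with siBDNF. PSMB8 then changed by -0.17 with siBDNF (adjusted p = 0.0596), PSMB9 by -0.62 (adjusted p = 0.0825) and PSME2 by -0.06 (adjusted p = 0.294), and PSME4 was called with neither siRNA (adjusted p = 0.441 with siNTRK2 and 0.0606 with siBDNF). With library totals in place of TMM, 7 members in place of 17 were lower with siBDNF, while the share of all called genes that were higher moved from 50.5% to 69.3%. Without siCtrl_Sen replicate 1 or 3, or siBDNF replicate 1 or 2, members lower with siBDNF also fell by over 1.5 times, to as few as 6. Over all genes, the number lower fell too, from 2185 to 1486, 1410, 1537 and 1344 in the same fits, in that order. PSMA2, PSMB1, PSMB4, PSMB5 and PSMB6 were called lower in all 6 fits that left out a library. PSMB9 with siBDNF lost its call in 5 of these 6 fits, PSMB8 without siCtrl_Sen replicate 1 (adjusted p = 0.0512), and PSMB10 with siNTRK2 in 3 of 6. With siNTRK2, PSMB2, PSMB8, PSME2 and PSMF1 were called lower in all 6, and the number fell to as few as 4 without siCtrl_Sen replicate 1 or 3. Over all genes, the number lower with siNTRK2 fell from 2158 to 1314 without replicate 1 and to 1251 without replicate 3.

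The direct comparison of the 2 siRNAs showed where they parted. With siNTRK2, 9 members, all constitutive, were higher than with siBDNF (9 of 45 tested, against 8.84% of all genes), and 0 were lower by edgeR (1 at an unadjusted p under 0.05 and 1 by DESeq2, against 7.86% of all genes). PSMA2 differed most, at 98.1, 120 and 108 CPM with siNTRK2 against 82, 84.6 and 88.2 CPM with siBDNF (0.36 ± 0.062, adjusted p = 0.000188). PSMD1, a scaffold subunit, was at 233, 236 and 226 CPM against 202, 200 and 199 CPM (0.21 ± 0.042, adjusted p = 0.000669), PSMB1 at 151, 166 and 157 CPM against 138, 136 and 139 CPM (0.20 ± 0.045, adjusted p = 0.00267) and PSMA5 at 94.0, 109 and 103 CPM against 88.3, 88.4 and 92.8 CPM (0.18 ± 0.055, adjusted p = 0.0234). These 4 were named as the largest called differences, and in each, as that choice favours, the siNTRK2 libraries lay above all siBDNF libraries. PSMB4, PSMC1, PSMC3, PSMD3 and PSMD11 were also higher. Of the 8 fibroblast markers 7 were likewise higher with siNTRK2 than with siBDNF, and their part in these differences was not tested. None of the inducible members differed between the siRNAs (0 at an unadjusted p under 0.05 and 0 by DESeq2): the difference was -0.04 ± 0.072 for PSMB8, 0.20 ± 0.26 for PSMB9, -0.06 ± 0.077 for PSMB10, 0.01 ± 0.062 for PSME1 and -0.06 ± 0.055 for PSME2. No member passed an absolute log2 fold change of 1 (0 also by DESeq2 and at an unadjusted p under 0.05), against 1.16% of all genes. With library totals 5 members were higher with siNTRK2, and the share of all called genes that were higher moved from 52.9% to 37.8%. Without siNTRK2 replicate 2, siBDNF replicate 2 or siBDNF replicate 3 the number of members higher fell by over 1.5 times, to as few as 4. Over all genes, the number higher fell too, from 1903 to 1648, 1437 and 1236 in the same fits, in that order. PSMA2, PSMB1, PSMD1 and PSMD3 were called higher in all 6 fits that left out a library.

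Genes that act with the inducible subunits were read in the same fit. Of 16 regulators of these subunits 14 were tested, and in senescent cells 8 fell and 2 rose (57.1% and 14.3%, against 28.3% and 29.8% of all genes). IFNB1 and IFNG, which encode interferons, had at most 1 count in any library. IRF1, an interferon-induced factor that acts on the promoters of inducible subunits, was lower in senescent cells (-0.18 ± 0.066, adjusted p = 0.0193) and lower again with siNTRK2 (-0.24 ± 0.067, adjusted p = 0.0119), but not called with siBDNF (-0.05 ± 0.066). NLRC5, the transactivator of MHC class I genes, fell from 10.6, 10.8 and 10.8 CPM to 5.59, 6.77 and 5.47 CPM (-0.85 ± 0.099, adjusted p = 6.27e-08), but rose with siNTRK2 (0.33 ± 0.1, adjusted p = 0.0215) and siBDNF (0.31 ± 0.1, adjusted p = 0.0304). The receptor genes IFNAR1 (0.43 ± 0.078, adjusted p = 0.000267) and IFNAR2 (0.31 ± 0.091, adjusted p = 0.0171) rose with siBDNF.

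The genes that carry peptides onward split in senescent cells. Of 9 genes of peptide trimming, loading and MHC class I, 4 rose (TAP1, B2M, HLA-B and HLA-C) and 2 fell (TAPBP and the trimming enzyme ERAP1), that is, 44.4% and 22.2% against 29.8% and 28.3% of all genes, with a median log2 fold change of -0.041. TAP1 rose from 42.3, 42.2 and 45.4 CPM to 65.4, 62.3 and 65.8 CPM (0.58 ± 0.05, adjusted p = 3.68e-10), with no overlap, whereas PSMB9 across the shared stretch printed above fell to 0.364 times its level. HLA-B (0.45 ± 0.047, adjusted p = 8.12e-09) and HLA-C (0.38 ± 0.047, adjusted p = 1.72e-07) rose, although reads of such similar genes may have been divided between them. ERAP1 fell from 84.7, 87.2 and 87.2 CPM to 51.4, 55.1 and 50.4 CPM (-0.72 ± 0.055, adjusted p = 2.81e-11). With siRNA TAP1 moved in the same direction as the inducible subunits, to 53.1, 52.6 and 51.5 CPM with siNTRK2 (-0.30 ± 0.05, adjusted p = 8.85e-05) and 56.4, 55.6 and 58.5 CPM with siBDNF (-0.18 ± 0.05, adjusted p = 0.00939).

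**Figure D5:**
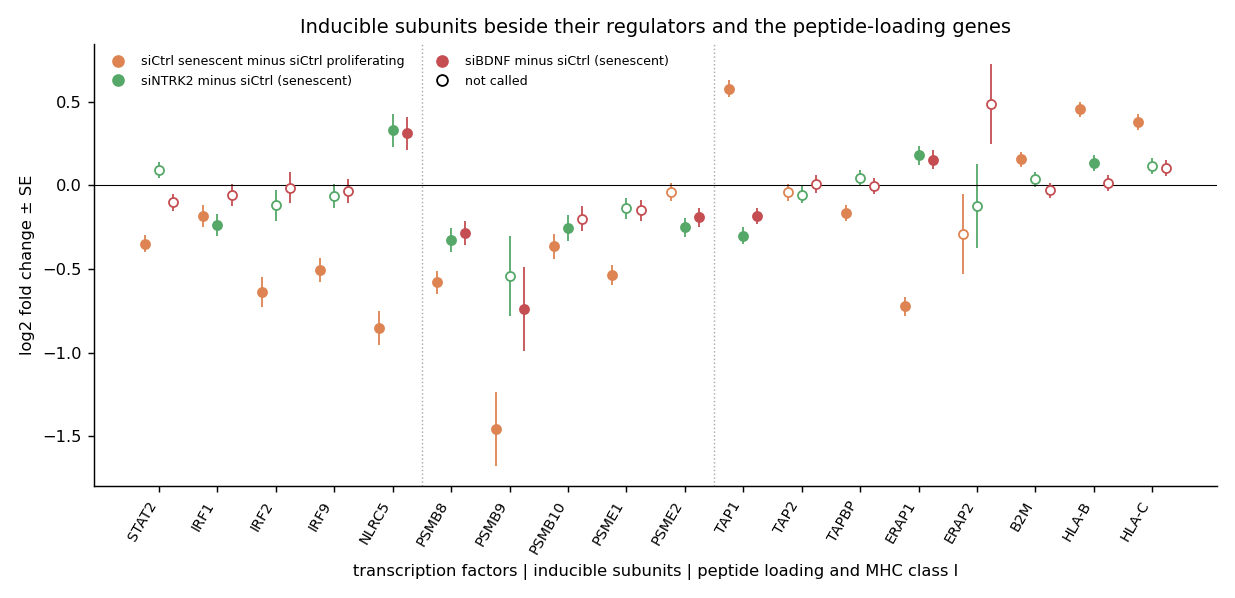
Log2 fold change with standard error (vertical axis) of interferon-pathway transcription factors and NLRC5 (left), the 5 inducible subunits (middle) and peptide-loading and MHC class I genes (right) in the 3 comparisons given by colour; open points were not called at an adjusted p under 0.05. In senescent cells TAP1, B2M, HLA-B and HLA-C lie above 0, while the factors and PSMB8, PSMB9, PSMB10 and PSME1 lie below it.

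Of the 5 genes fixed as regulators of the constitutive subunits, NFE2L1, the factor that raises proteasome gene expression when the proteasome is impaired, rose from 269, 267 and 279 CPM to 340, 363 and 346 CPM in senescent cells (0.36 ± 0.042, adjusted p = 5.24e-08), and further with siNTRK2 (0.16 ± 0.042, adjusted p = 0.00642) and siBDNF (0.14 ± 0.042, adjusted p = 0.0209). NFE2L2, the factor of the antioxidant response, fell in senescent cells (-0.38 ± 0.044, adjusted p = 5.28e-08) and was called with neither siRNA. DDI2, the protease that activates NFE2L1, fell in senescent cells and rose with both siRNAs. Among 8 further subunits and bound enzymes 2 rose and 4 fell in senescent cells (25% and 50%, against 29.8% and 28.3% of all genes), with ADRM1, a ubiquitin receptor, rising by 0.20 ± 0.055 (adjusted p = 0.00301), and UCHL5, the deubiquitinase that ADRM1 recruits, falling from 20.5, 21.1 and 16.8 CPM to 10.1, 11.9 and 11.6 CPM (-0.81 ± 0.085, adjusted p = 1.14e-08). UCHL5 rose again with siNTRK2 (0.37 ± 0.086, adjusted p = 0.00307). SEM1, a small lid subunit, fell in senescent cells and with siBDNF, and was higher with siNTRK2 than with siBDNF (0.29 ± 0.065, adjusted p = 0.00239). Of 3 assembly factors, AKIRIN2, which brings proteasomes into the nucleus, fell from 65.1, 63.1 and 63.3 CPM to 36.9, 38.8 and 38.8 CPM (-0.74 ± 0.055, adjusted p = 1.65e-11). POMP, the maturation factor of the 20S core, fell by 0.15 on the log2 scale (adjusted p = 0.0385). With the trend in length and GC content removed, POMP was instead called higher (0.153, adjusted p = 0.0028 by edgeR). By DESeq2, 1 of the 3 assembly factors was called lower, in place of 2 by edgeR. Of 8 shuttles and unfoldase genes 4 rose and 3 fell in senescent cells (50% and 37.5%, against 29.8% and 28.3% of all genes), and UBQLN4, a shuttle, was lower with siNTRK2 than with siBDNF (-0.21 ± 0.051, adjusted p = 0.00393).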

How the data were processed

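RNA-seq counts of 12 WI-38 libraries, 3 in each of 4 groups taken from the sample titles, were analysed. Per the labels and the study's methods, the authors trimmed reads (Cutadapt), aligned them with STAR 2.4.0j to hg19 and made raw counts per Ensembl gene with featureCounts 1.6.4; the deposited counts were used as they stood. Whether counting used the strand is not given in the sources used here. Genes were named through a table of gene names, and coordinates, lengths and GC content come from GENCODE on GRCh37. Counts were fitted in R 4.3.3 with edgeR 4.0.16 (TMM, filterByExpr, quasi-likelihood test, 1 term per group, all 12 libraries), with Benjamini-Hochberg adjustment over 21518 genes; called means an adjusted p under 0.05. CPM are normalized by TMM, log2 fold changes are the first group minus the second, and SE was derived from the fold change and the F statistic. Ratios of catalytic subunits were compared with a two-sided exact permutation test. Tests recovered known changes in simulated counts. All genes there shared a common dispersion, and no trend in length or GC content was put in. Changes were set only in well-counted genes and only for senescent against proliferating cells, so the comparisons of siRNAs were not covered.

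A count of 0 allows up to 3 counts, or 0.0427 to 0.0916 CPM by library. This limit covers counting error only, as the sources used here name no molecular identifiers. Members, classes and lists were chosen with earlier results of these data known. Named genes were the inducible and constitutive catalytic subunits, the 4 largest called changes in each direction per comparison, the members filtered out, and of the related genes the 3 largest called changes per comparison and 8 fixed ones, not all of which are reported here; members of small counts, and B2M, ERAP1, DDI2, HLA-B and HLA-C, were named after their values were seen. Alternatives were DESeq2 1.42.0, its size factors in edgeR, library totals, no filter, a 10-count minimum, a fit to the compared groups alone, a replicate block, each library left out and, for ratios, a prior count of 2; a further offset, for length and GC of transcripts, was added after seeing the data.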

Additional observations from a re-analysis of the deposited data

How the results depend on the processing

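The replicate numbers of the labels did not pair the libraries (the correlation of same-numbered deviations averaged 0.00184), and with the replicate block 18 members in place of 17 were lower in senescent cells, and 17 were lower with siBDNF, as without it; it moved no count of calls by over 1.5 times. In senescent against proliferating cells, the offset for length and GC content gave 16 members and 12 constitutive subunits called higher (8 and 7 in the fit reported) and a constitutive median of 0.026, and turned POMP to 0.153 and PSMD1 to 0.004; PSMB7 turned to 0.013 with library totals and 0.011 with at least 10 counts in every library. With siNTRK2, the offset left 5 members and 1 constitutive subunit lower, and 2 constitutive subunits were higher with the offset, DESeq2, library totals and the 10-count minimum; the offset turned ADRM1 to 0.002, PSMB7 to 0.036 and NFE2L2 to -0.028, and NFE2L2 was -0.001 with DESeq2 and with its size factors. With siBDNF, members lower numbered 7 with library totals and 9 with the offset (constitutive 6 and 8), members higher 3 with library totals, 2 with no filter, 2 with only the groups compared and 0 with the offset, constitutive subunits higher 1 with library totals, no filter and only the groups compared, and the inducible median was -0.081 with the offset; library totals turned IRF1 to 0.003 and POMP to 0.021. With siNTRK2 against siBDNF, library totals gave 5 members higher, all constitutive, and a constitutive median of 0.053, 1 member was lower with DESeq2, library totals, the 10-count minimum and the offset, and library totals turned NFE2L1 to -0.013, NLRC5 to -0.021 and PSME1 to -0.027, the last also to -0.033 with the offset. The cause was not tested.

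Leaving out each library in turn gave, with siNTRK2, 1 to 3 members and 0 to 2 constitutive subunits higher and 4 to 9 members and 1 to 5 constitutive subunits lower; with siBDNF, 6 to 21 members and 5 to 16 constitutive subunits lower; and between the siRNAs, 4 to 10 higher, for members and constitutive subunits alike. Values near 0 changed sign: in senescent cells PSMB7 ranged from -0.08 to 0.018 and PSME2 from -0.099 to 0.009; with siNTRK2 NFE2L2 from -0.021 to 0.023 and PSMB7 from -0.078 to 0.019; with siBDNF IRF1 from -0.089 to 0.004 and POMP from -0.059 to 0.003; and between the siRNAs ADRM1 from -0.001 to 0.09, NLRC5 from -0.03 to 0.079, PSMB8 from -0.07 to 0.006, PSMB9 from -0.189 to 0.496, PSME1 from -0.065 to 0.069 and the log2 ratio of PSMB9 to PSMB6 from -0.319 to 0.447. The low counts of PSMB9 limit its precision.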
